A study of Rattus norvegicus with 8 samples.

Results

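Skeletal muscle genes were read in sciatic nerve tissue that is labelled as nerve in every library. The set held 49 gene symbols of the muscle fibre and of the cells that build it, and its members were the symbols that were listed with a normalized read count above 0 in at least 1 library. Of the 49 symbols, 43 were members, out of 22798 genes with a read in the series, and the other 6 (Myh1, Myh4, Ttn, Myot, Atp2a1 and Chrng) were not analysed here. No member lay near the limit, since the member with the lowest peak, Pax7, reached 19.7 normalized reads in its highest library.

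The 8 RNA-seq libraries came from female outbred Sprague Dawley rats (Envigo) of 3-6 months. PEG-fused PNAs (n = 3 animals) were peripheral nerve allografts, a length of sciatic nerve from an unmatched donor rat, joined to the host nerve by microsutures with polyethylene glycol (PEG), a membrane fusogen, applied to the cut ends. NC PNAs (negative controls, n = 3) had the same graft, saline and methylene blue without PEG, and both were taken 14 days postoperatively (PO). Unop nerves (n = 2) were unoperated sciatic nerves. Neither host nor donor was immunosuppressed or tissue matched, and the nerve was reached through the biceps femoris, a thigh muscle. The authors describe thin layers of muscle and connective tissue that stick to rejected NC PNAs and were not fully removed at excision. Tissue of all cell types was ground together, so fewer cells of a type and less RNA per cell cannot be told apart, and how much muscle each piece of tissue carried is not given in the sources used here. Libraries are named below by group and number (PEG 1, NC 1, Unop 1), and values are given in the order of those numbers. Between 32472925 and 39959620 reads fell on genes in each library.

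A skeletal muscle fibre is a long cell with many nuclei, packed with sarcomeres in which thick filaments of myosin pull on thin filaments of actin. Fast and slow fibres use different genes for most of these proteins, and embryonic and neonatal myosins come before the adult ones and return while a fibre regenerates. New fibre nuclei come from satellite cells, which carry Pax7 and then pass through the myogenic factors Myf5, Myod1 and Myog, whereas Myf6 is kept in adult fibres. A peripheral nerve has no skeletal muscle fibres of its own, and its resident muscle is the smooth muscle of its vessels.

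The NC PNAs were not alike in muscle gene reads. The 33 members of the adult fibre (the members without the developmental myosins, myogenic factors and acetylcholine receptor subunits) held 3.53% of all normalized reads in NC 1 and 1.37% in NC 3, but 0.0618% in NC 2. The same sum was 0.0891%, 0.0160% and 0.0383% in the PEG-fused PNAs and 0.160% and 0.0330% in the Unop nerves. NC 1 thus had 57.1 times and NC 3 had 22.2 times the share of NC 2, which lay among the PEG-fused PNAs and Unop nerves. PEG 1 had 5.58 times the share of PEG 2, and Unop 1 had 4.84 times that of Unop 2. Over all tested genes the median ratio of NC 1 to NC 2 was 0.980, and that of Unop 1 to Unop 2 was 1.02.

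Most single members had the same highest libraries as the sum. NC 1 was the highest of the 8 libraries for 40 of the 43 members, and NC 3 for the remaining 3 (Myh3, Myh8 and Chrnd). NC 1 and NC 3 both exceeded the other 6 libraries in 40 of 43, a pattern seen in 5.12% of the 16478 tested genes, and both were over 5 times NC 2 in 39 of 43 (2.15% of tested genes). Tnnt1 and the slow fibre genes Myh7, Myl2 and Myl3 were the members outside that last count. NC 2 lay within the range of the PEG-fused PNAs for 32 members and above all of them for 10. Among PEG-fused PNAs, PEG 1 was highest for 39 and PEG 2 lowest for 37. These orders describe how the members vary and were not tested, as the set was drawn up with earlier results of these libraries known.

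**Figure D1:**
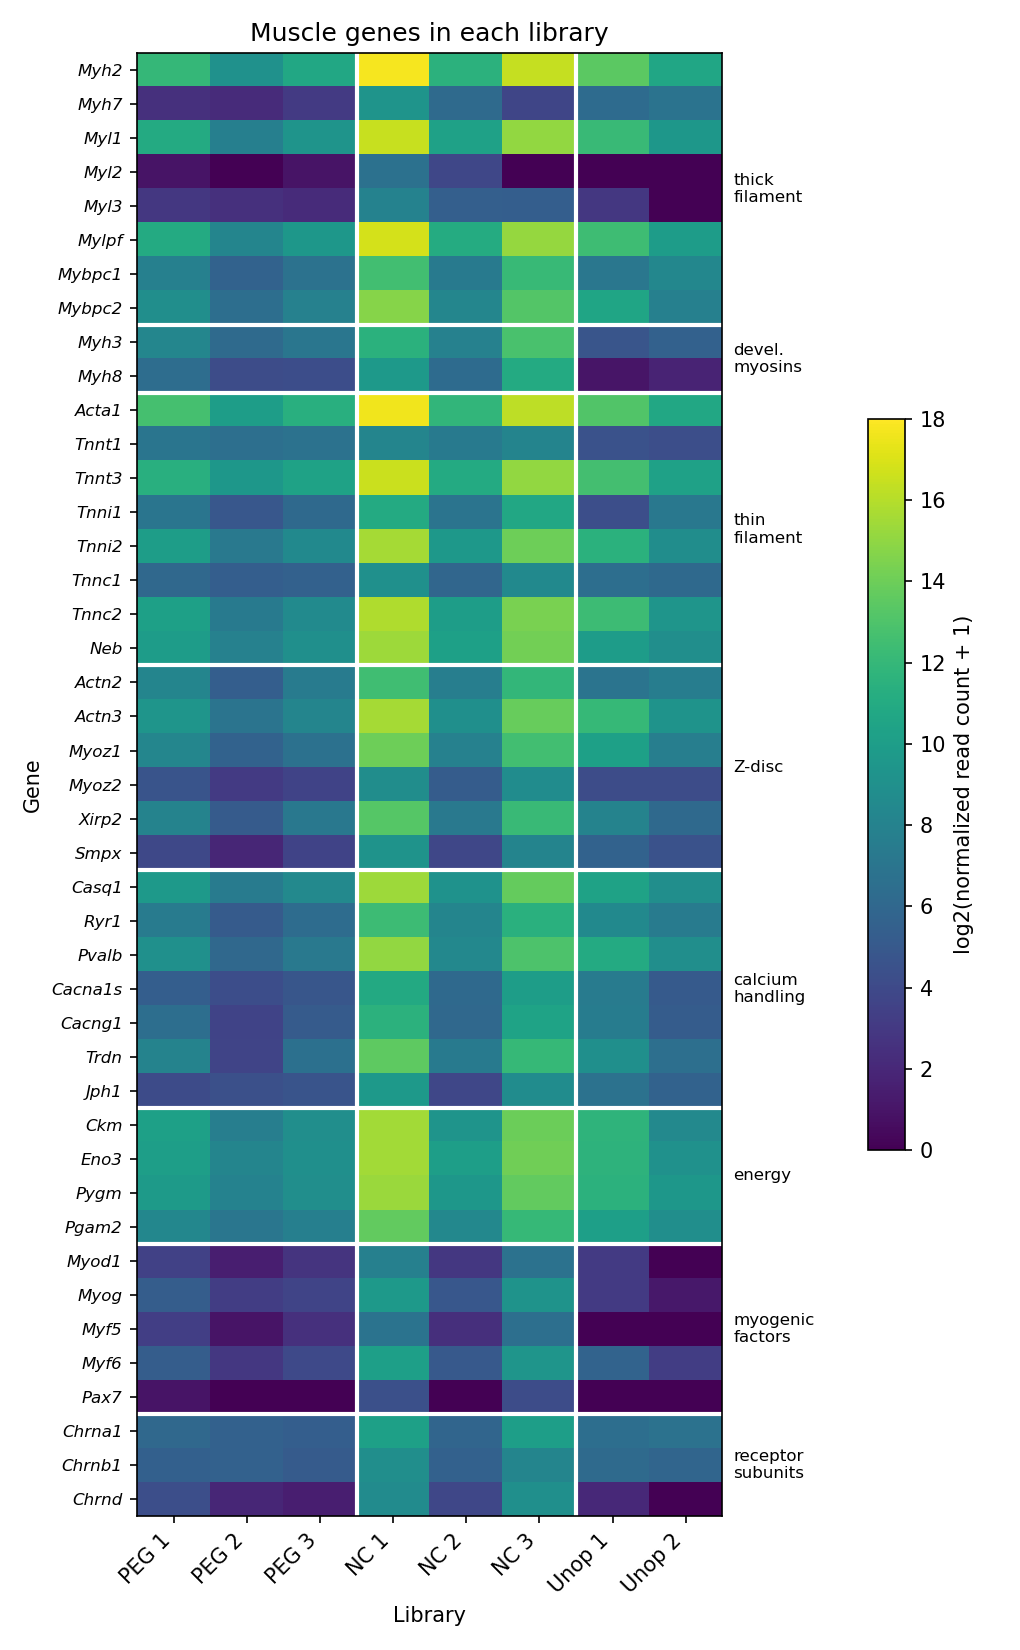
Each row is a member gene and each column a library, coloured by log2(normalized read count + 1). Genes are grouped by role between white lines. Colours are to be compared along a row, since counts were not divided by gene length. The NC 1 and NC 3 columns are the brightest in 40 of 43 rows, and NC 2 resembles the PEG and Unop columns.

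**Figure D2:**
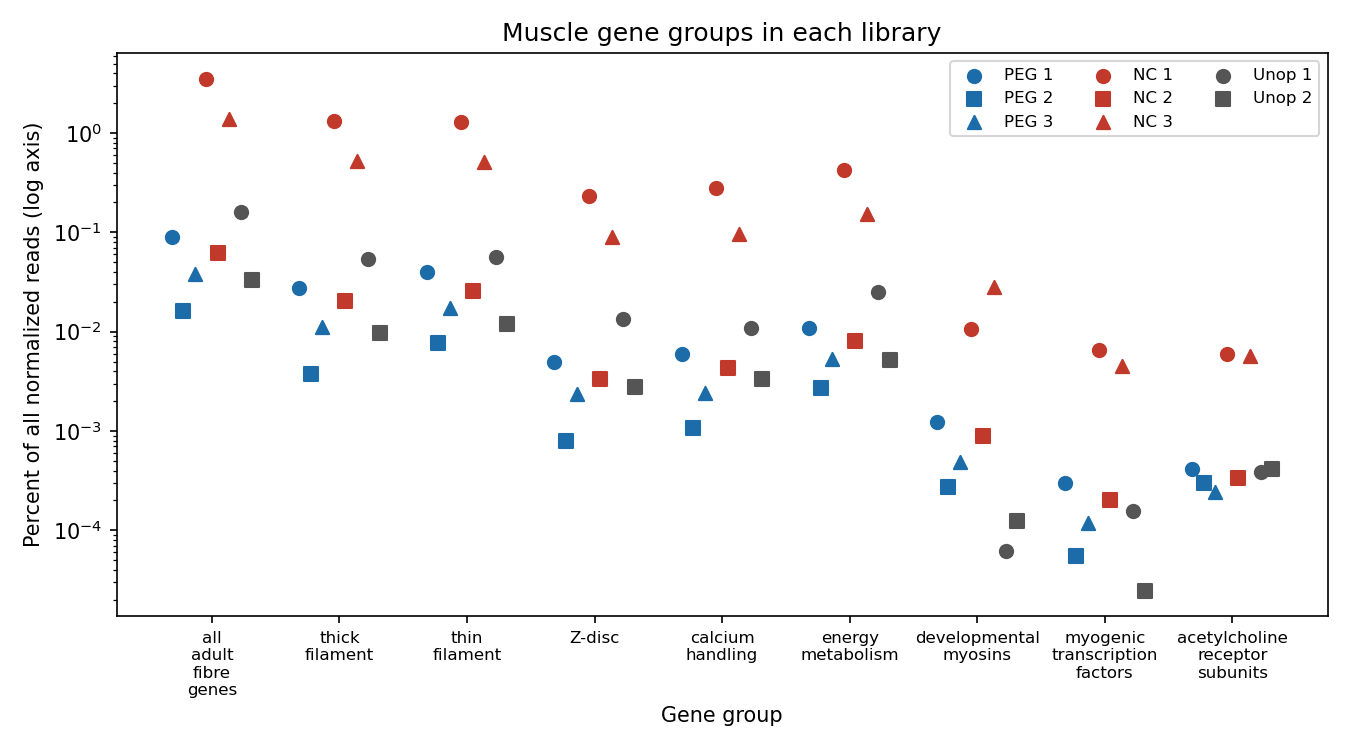
The summed normalized reads of each gene group are shown as a percent of all normalized reads of the library on a log axis, with a point for each library. NC 1 and NC 3 stand above the other 6 libraries in every group shown. NC 1 is the higher of them except for the developmental myosins, and the Unop nerves are lowest for those.

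Other cell markers moved differently between the libraries. The T cell list (Cd3d, Cd3e, Cd3g and Cd8a) held 0.0371%, 0.0661% and 0.0501% of normalized reads in the NC PNAs, so that the NC PNA with the fewest fibre reads had the most T cell reads. The order was not the same elsewhere: the T cell list held 0.00996%, 0.00330% and 0.00965% in the PEG-fused PNAs, where PEG 1 was highest and PEG 2 lowest for both lists, and 0.000533% and 0.000280% in the Unop nerves, with Unop 1 the higher for both. The list of 7 Schwann cell genes held 5.01% and 6.33% in Unop nerves and from 0.0552% to 0.202% in the grafts. Of the smooth muscle genes, Acta2 had 1679, 1874 and 2302 normalized reads in the NC PNAs and did not follow the fibre genes, whereas Des, which skeletal fibres also express, had 33528, 7450 and 21082. The 8 genes of the cardiac list were mixed. Actc1, an actin of heart and of developing skeletal muscle, followed the fibre genes with 5141, 261 and 4820 in the NC PNAs, as did Myl4 with 2049, 89.3 and 739. Tnnt2 had 741, 233 and 525 there and was highest in the Unop nerves (2290 and 1226), where Myh6 was also highest. Nppa, a defining gene of heart muscle, had at most 1.08 normalized reads in any graft and 9.66 and 7.50 in the Unop nerves. Myl7, Ryr2 and Tnni3 had at most 12.2 in any graft. The part of these cell types in the results below was not tested.

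Thick filament genes set the scale. Myh2, a fast myosin heavy chain, had 4038, 559 and 1777 normalized reads in the PEG-fused PNAs, 218632, 3086 and 87548 in the NC PNAs, and 11174 and 1600 in the Unop nerves. Mylpf, the fast regulatory light chain, had 2085, 289 and 748, then 118277, 2184 and 35868, and then 5537 and 969. Both groups of grafts overlapped for Myh2 and did not for Mylpf, where NC 2 lay just above PEG 1. Mylpf fell in PEG-fused PNAs (log2 fold change -4.77 ± 1.41 SE, limma adjusted p = 0.0367), and Myh2 did not pass (-4.61 ± 1.53 SE, limma adjusted p = 0.0536). Myl1, another fast light chain, and Mybpc2, the fast myosin-binding protein, had NC 1, NC 3, Unop 1, PEG 1 and NC 2 as their highest libraries in that order, as Myh2 did. Reads of near-identical myosin heavy chain genes (Myh2, Myh3 and Myh8, or Myh7 and Myh6) may have been split between copies or discarded, so their single values are uncertain.

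Most thin filament genes gave the same picture. Tnnt1 (below) was an exception, and so was Tnni1 in the Unop nerves, at 19.3 in Unop 1 and 148 in Unop 2. Acta1, the skeletal actin, had 6522, 1033 and 2673 normalized reads in PEG-fused PNAs, 202480, 3635 and 76780 in NC PNAs, and 8945 and 1760 in Unop nerves. Neb, the giant ruler of the thin filament, had 1005, 235 and 508, then 42331, 1195 and 18549, and then 966 and 467. NC 2 exceeded every PEG-fused PNA for Neb but not for Acta1. Neb fell in PEG-fused relative to NC PNAs (-4.31 ± 1.18 SE, limma adjusted p = 0.0278) and rose in NC PNAs relative to Unop nerves (3.86 ± 1.32 SE, adjusted p = 0.0307).

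Tnnt1, the slow troponin T, was the only member whose values kept all 3 groups apart. It had 124, 94.4 and 111 normalized reads in PEG-fused PNAs, 288, 169 and 273 in NC PNAs, and 22.5 and 18.8 in Unop nerves. Tnnt1 had the smallest coefficient of variation of the 43 members in PEG-fused PNAs (13.6%) and in NC PNAs (26.6%), against medians of 74.0% and 100%. By limma it fell in PEG-fused relative to NC PNAs (-1.11 ± 0.25 SE, adjusted p = 0.0125), rose in PEG-fused PNAs relative to Unop nerves (2.35 ± 0.28 SE, adjusted p = 0.000163) and rose in NC PNAs relative to Unop nerves (3.46 ± 0.28 SE, adjusted p = 1.32e-05). Both comparisons with Unop nerves passed under all 19 alternative settings. The comparison of the grafts missed the threshold without PEG 2 (adjusted p = 0.0521) and without NC 1 (log2 fold change -0.97, past the adjusted p but not past 1), within a range of adjusted p from 0.000267 to 0.0521. Set against the fibre reads of the same library, Tnnt1 had 18.3 reads per 1000 adult fibre reads in PEG 2 and 0.231 in NC 1. This and the other ratios to fibre reads below were chosen after the data were seen and are descriptions.

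The upstream sequences of 4 members are shown as examples. Acta1 and Ckm had their highest reads in NC 1 and NC 3, as the fibre sum did, and Tnnt1 followed the group labels. Myog was higher per fibre read in every graft than in both Unop nerves, and so was Acta1. They are the 250 bases before the annotated start in RefSeq (build GRCr8, 5' to 3' on the gene's strand), and windows were found for 36 of the 43 members, 1 of them with a pair of starts. Capitals mark E-boxes (CANNTG, the core bound by myogenic factors), TATAAA and the CArG box, searched on both strands.
Acta1 (chr19:68784195-68784444, minus strand): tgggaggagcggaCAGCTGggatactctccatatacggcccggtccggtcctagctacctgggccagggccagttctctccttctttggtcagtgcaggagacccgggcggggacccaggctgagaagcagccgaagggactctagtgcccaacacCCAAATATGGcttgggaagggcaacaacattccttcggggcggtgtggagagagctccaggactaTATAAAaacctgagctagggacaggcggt
Ckm (chr1:88189211-88189460, plus strand): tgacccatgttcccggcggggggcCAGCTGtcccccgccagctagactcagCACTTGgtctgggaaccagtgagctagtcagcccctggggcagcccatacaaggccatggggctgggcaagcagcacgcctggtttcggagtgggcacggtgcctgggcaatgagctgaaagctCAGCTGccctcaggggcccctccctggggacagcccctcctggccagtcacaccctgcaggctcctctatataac
Myog (chr13:48297226-48297475, plus strand): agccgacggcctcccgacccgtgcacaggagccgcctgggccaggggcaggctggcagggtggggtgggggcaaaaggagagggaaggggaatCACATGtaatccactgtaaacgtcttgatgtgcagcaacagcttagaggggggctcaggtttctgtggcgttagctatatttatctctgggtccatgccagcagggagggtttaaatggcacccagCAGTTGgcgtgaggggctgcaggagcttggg
Tnnt1 (chr1:78348785-78349034, plus strand): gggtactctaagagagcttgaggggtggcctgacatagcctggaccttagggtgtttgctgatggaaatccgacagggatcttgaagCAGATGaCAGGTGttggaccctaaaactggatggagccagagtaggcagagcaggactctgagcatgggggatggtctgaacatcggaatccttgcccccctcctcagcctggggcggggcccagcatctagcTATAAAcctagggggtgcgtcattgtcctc

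The E-box CAGCTG stood in 11 of the 37 member windows (29.7%) and in 12.0% of all 33469 windows, and any CANNTG, which includes it, in 31 (83.8%) and 65.5%. TATAAA was found in 11 (29.7%) against 12.9%, the MEF2 site in 6 (16.2%) against 2.96%, and the CArG box in 2 (5.41%) against 1.50%. TATAAA can overlap the MEF2 site. Acta1 and Ckm held CAGCTG, while the E-boxes of Myog and Tnnt1 had other letters between the fixed ends. Other members did not divide in that way. Of members with their highest reads in NC 1 and NC 3, Casq1 and Pygm held CAGCTG, but Myh2 and Actn3 did not. Myh7, which departed from the fibre sum (below), held it. These matches describe letters in the windows and were not tested.

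Z-disc genes tie the thin filaments of neighbouring sarcomeres together. Actn3, the fast alpha-actinin, had 677, 122 and 290 normalized reads in PEG-fused PNAs, 48907, 510 and 14740 in NC PNAs, and 4168 and 618 in Unop nerves. Myoz2, a calcineurin-binding protein of slow fibres, had 24.1, 7.48 and 11.3, then 448, 36.6 and 423, and then 17.2 and 17.5. Myoz2 separated the grafts and fell in PEG-fused PNAs (-3.81 ± 0.90 SE, limma adjusted p = 0.0160), and its fast counterpart Myoz1 also fell (adjusted p = 0.0479) although NC 2 (238) lay below PEG 1 (302). Xirp2, a repair-associated actin-binding protein, had 262, 34.6 and 149, then 9660, 153 and 4752, and then 262 and 68.8.

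Genes of excitation and calcium release followed the fibre sum too. Ryr1, the calcium release channel of the sarcoplasmic reticulum, had 174, 34.6 and 81.6 normalized reads in PEG-fused PNAs, 5271, 287 and 2714 in NC PNAs, and 372 and 178 in Unop nerves. Cacna1s, the voltage sensor of the T-tubule, had 40.8, 17.8 and 27.2, then 1921, 68.8 and 1023, and then 182 and 33.8. NC 2 exceeded every PEG-fused PNA for both genes, and both fell in PEG-fused relative to NC PNAs by limma (Ryr1 -4.32 ± 1.02 SE, adjusted p = 0.0159). Pvalb, the calcium buffer of fast fibres, had the widest gap between NC PNAs, at 33945 in NC 1 and 336 in NC 2, or 101-fold. Jph1, which holds T-tubule and reticulum together, was the only member for which NC 2 (12.9) lay below every PEG-fused PNA (16.7, 19.6 and 24.4).

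Energy genes of the fast fibre were also highest in NC 1 and NC 3. Ckm, the muscle creatine kinase, had 1176, 204 and 483 normalized reads in PEG-fused PNAs, 47582, 622 and 15816 in NC PNAs, and 3344 and 351 in Unop nerves. Pgam2, the muscle phosphoglycerate mutase, had 321, 131 and 217, then 13400, 345 and 4298, and then 1142 and 474. Pgam2 separated the grafts, by only a small gap between PEG 1 and NC 2, and fell in PEG-fused relative to NC PNAs (-3.69 ± 1.15 SE, limma adjusted p = 0.0434). Ckm did not pass (adjusted p = 0.0876).

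Developmental myosins had another order of libraries. Myh3, the embryonic heavy chain, had 310, 72.0 and 136 normalized reads in PEG-fused PNAs, 2905, 238 and 7304 in NC PNAs, and 25.8 and 47.5 in Unop nerves. Myh8, the neonatal heavy chain, had 84.3, 16.8 and 17.8, then 853, 77.5 and 2004, and then 1.07 and 2.50. NC 3 exceeded NC 1 for both, in reverse of the fibre sum, and every graft exceeded both Unop nerves. By limma both genes fell in PEG-fused relative to NC PNAs (Myh3 -3.56 ± 1.13 SE, adjusted p = 0.0462, and Myh8 -4.07 ± 1.13 SE, adjusted p = 0.0292). Both rose in NC PNAs relative to Unop nerves, by 5.58 ± 1.26 SE (adjusted p = 0.00458) and 7.57 ± 1.26 SE (adjusted p = 0.000882) on the log2 scale, and these calls passed under all 19 alternatives. In PEG-fused PNAs relative to Unop nerves Myh8 rose (3.51 ± 1.26 SE, adjusted p = 0.0413) and Myh3 did not pass (2.02 ± 1.26 SE, adjusted p = 0.202). The Myh8 call was lost without any 1 of the PEG-fused PNAs or Unop nerves (adjusted p up to 0.179 over the alternatives).

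Per 1000 adult fibre reads, Myh3 and Myh8 together had 13.8, 17.2 and 12.6 reads in PEG-fused PNAs, 3.02, 14.6 and 20.4 in NC PNAs, and 0.391 and 3.73 in Unop nerves. The 5 grafts other than NC 1 thus lay between 12.6 and 20.4, although their fibre shares ranged from 0.0160% to 1.37%, and NC 1, which had the most fibre reads, lay below Unop 2. The myogenic factors Myod1, Myog, Myf5 and Myf6 together had 3.37, 3.43 and 3.07 reads per 1000 in PEG-fused PNAs, 1.85, 3.28 and 3.24 in NC PNAs, and 0.970 and 0.746 in Unop nerves. Every graft exceeded both Unop nerves in that ratio, and NC 1 had the lowest value of the grafts. The adult actin Acta1 had 228, 200 and 219 reads per 1000 in PEG-fused PNAs, 163, 168 and 169 in NC PNAs, and 130 and 131 in Unop nerves. That ratio therefore also kept the groups apart, with the PEG-fused PNAs highest and the Unop nerves lowest. Acta1 is itself part of the adult fibre sum, which limits how far its ratio can move, unlike the ratios of the genes above.

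**Figure D3:**
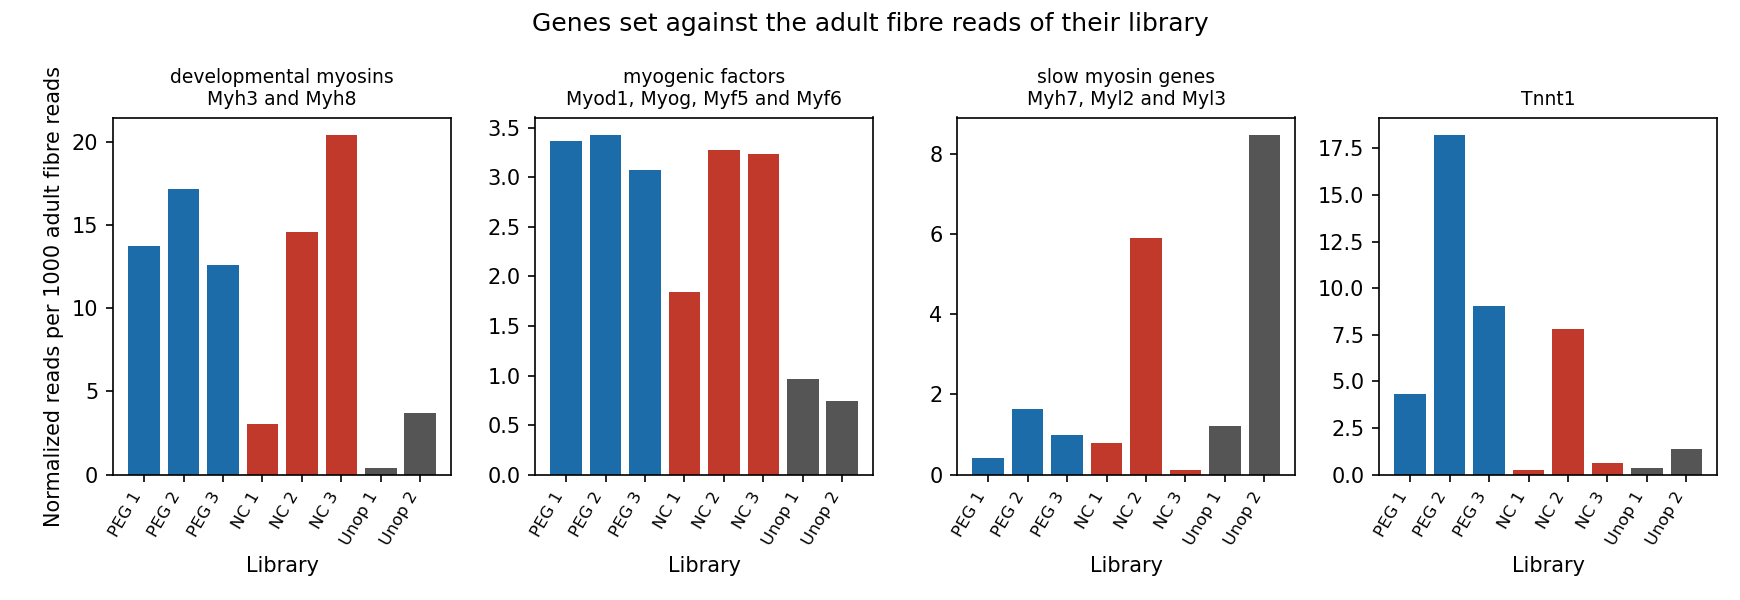
The bars give normalized reads per 1000 adult fibre reads of the same library for 4 sets of genes, with PEG-fused PNAs in blue, NC PNAs in red and Unop nerves in grey. Developmental myosins lie at 12.6 or above in every graft except NC 1 (3.02), and myogenic factors at 1.85 or above in every graft and below 1 in both Unop nerves. The slow myosin genes peak in NC 2 (5.92) and Unop 2 (8.49), and Tnnt1 in PEG 2 (18.3).

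Myogenic factors were low in number of reads outside NC 1 and NC 3. Myog, which drives myoblasts into fibres, had 38.9, 8.41 and 12.2 normalized reads in PEG-fused PNAs, 817, 29.0 and 592 in NC PNAs, and 7.51 and 1.25 in Unop nerves. Every graft exceeded both Unop nerves, but PEG 2 and Unop 2 rest on 9 and 1 reads. Myog fell in PEG-fused relative to NC PNAs (-3.84 ± 1.22 SE, limma adjusted p = 0.0472) and rose in NC PNAs relative to Unop nerves (5.80 ± 1.37 SE, adjusted p = 0.00573). Myod1, the myoblast determination factor, had 10.2, 1.87 and 5.63, then 231, 6.45 and 107, and then 7.51 and 0. Myf6 had 38.0, 6.54 and 15.0, then 1138, 31.2 and 679, and then 51.5 and 8.76. Myf6 was the only myogenic factor for which Unop 1 exceeded every PEG-fused PNA.

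Myf5, an early myogenic factor, had 9.27, 0.935 and 4.69 normalized reads in PEG-fused PNAs, 115, 4.30 and 95.5 in NC PNAs, and no read in Unop 1 or Unop 2. Set against 3 reads per library in the Unop nerves (the floor), the mean of the NC PNAs was at least 20.6-fold higher, and that of the PEG-fused PNAs at least 1.42-fold higher. The bound for the PEG-fused PNAs rested on PEG 1, since without it their mean (2.81) lay under the floor (3.49). Pax7, the satellite cell factor, had 19.7, 0 and 17.4 in the NC PNAs, 0.927 in PEG 1 and 0 in the other 4 libraries, so that it was seen almost solely where fibre reads were high. Its mean in NC PNAs was at least 3.54-fold above the floor, 2.49-fold without NC 1 and 5.31-fold without NC 2. A count of 0 allows up to 3 reads, and this floor covers counting error only.

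Of the acetylcholine receptor subunits of the muscle endplate, Chrnd had 19.5, 2.80 and 1.88 normalized reads in PEG-fused PNAs, 404, 12.9 and 506 in NC PNAs, and 3.22 and 0 in Unop nerves. NC 3 was its highest library, as for the developmental myosins. Chrnd fell in PEG-fused relative to NC PNAs (-4.55 ± 1.41 SE, limma adjusted p = 0.0432) and rose in NC PNAs relative to Unop nerves (6.11 ± 1.58 SE, adjusted p = 0.00885). Chrna1 had 67.7, 46.7 and 41.3, then 1224, 58.1 and 1092, and then 88.0 and 111. Chrna1 and Chrnb1 were detected in all 8 libraries, and for both every PEG-fused PNA lay below both Unop nerves.

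Slow myosin genes departed from the fibre sum. Myh7, the slow heavy chain, had 4.63, 3.74 and 7.50 normalized reads in PEG-fused PNAs, 639, 72.1 and 12.5 in NC PNAs, and 76.2 and 114 in Unop nerves. Myl3, the slow essential light chain, had 6.49, 4.67 and 3.75, then 246, 43.0 and 40.5, and then 6.44 and 0. Myl2, the slow regulatory light chain, had 106.3, 12.9 and 0 in the NC PNAs and at most 1 read in each of the other 5 libraries. For these 3 genes NC 2 was not the lowest NC PNA, unlike the other 40 members. Myh7 fell in PEG-fused grafts against NC PNAs (-3.82 ± 1.16 SE, limma adjusted p = 0.0404) and relative to Unop nerves (-3.95 ± 1.30 SE, adjusted p = 0.0289). The call against Unop nerves was lost without PEG 1, PEG 2, Unop 1 or Unop 2, with pseudocount 8 and with a replicate block (adjusted p from 0.000276 to 0.128 over the 19 alternatives). Its paralogue Myh6, a cardiac heavy chain that is no member, had 363 and 974 in Unop nerves and 41.5 to 108.1 in the grafts, so the origin of the Myh7 reads in Unop nerves is uncertain. Against Unop nerves, the Myl2 mean in NC PNAs was at least 11.4-fold above the floor, but at least 1.85-fold without NC 1 and 17.1-fold without NC 3.

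Pairs of fast and slow genes were read as log2 ratios within a library, with 1 added to each normalized count. Tnnt3 over Tnnt1 was 8.36, 3.60 and 7.00 in NC PNAs, 4.42, 2.97 and 3.56 in PEG-fused PNAs, and 8.03 and 6.00 in Unop nerves. NC 2 again lay among the PEG-fused PNAs, while the Unop nerves stood with NC 1 and NC 3, Tnnt1 being low in the Unop nerves. Tnni2 over Tnni1, the inhibitory troponins, was 4.54, 2.65 and 3.28, then 3.03, 2.37 and 2.41, and then 7.14 and 1.63. Unop 1 and Unop 2 were the highest and the lowest library for that pair, because Tnni1 had 19.3 reads in Unop 1 and 148 in Unop 2 while Tnni2 had 2856 and 458. As a whole, the 11 fast members had 5.63 times and the 8 slow members 0.508 times the share in Unop 1 that they had in Unop 2.

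**Figure D4:**
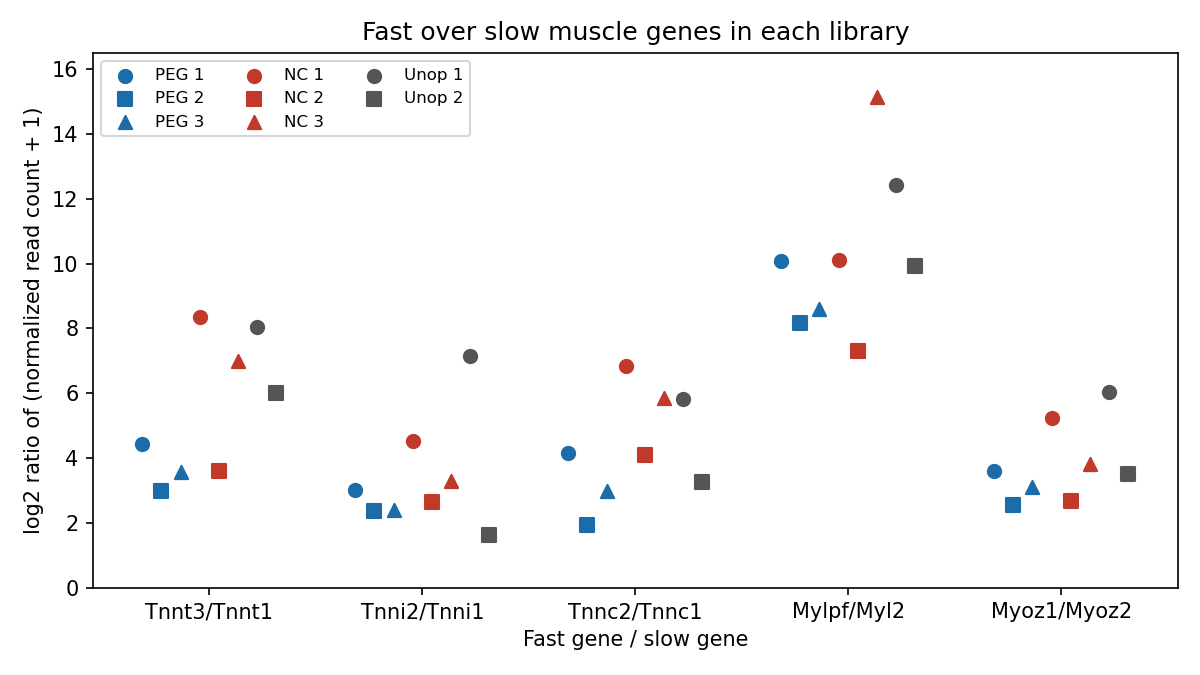
The points give, for 5 gene pairs and each library, the log2 ratio of the fast to the slow gene (normalized read count + 1). NC 2 lies below NC 1 and NC 3 in every pair. PEG-fused PNAs lie between 1.93 and 4.42 except for Mylpf over Myl2, where Myl2 is at or near 0 and the ratio depends on the added 1.

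By limma, 18 of 43 members fell in PEG-fused relative to NC PNAs (log2 fold change below -1 and adjusted p under 0.05, Benjamini-Hochberg over 16478 genes), against 7.14% of tested genes, and 0 rose (4.41% of tested genes, with 0 at an unadjusted p under 0.05 and 0 by edgeR or DESeq2). Myl2, Myl3, Myf5 and Pax7 entered the test only through the NC PNAs, where they are high, and without them 17 of 39 fell. All 43 fold changes were negative, from -4.86 (Trdn) to -1.11 (Tnnt1), with a median of -3.95 against 0.00 over all tested genes. Of the roles, 4 of 8 thick filament genes fell, with 3 of 8 thin filament, 2 of 6 Z-disc and 2 of 7 calcium handling genes. In the other roles, 2 of 4 energy, 2 of 5 myogenic, 1 of 3 receptor and 2 of 2 developmental myosin genes fell. Of the genes that entered only through the NC PNAs, Myl3 is among the thick filament genes that fell. Myl2 is among those that did not, as are Myf5 and Pax7 among the myogenic genes. Every PEG-fused PNA lay below every NC PNA in 9 of 43 members (20.9%), a smaller share than the 23.3% of all tested genes. They were Myh7, Myl3, Mylpf, Tnnt1, Neb, Myoz2, Ryr1, Cacna1s and Pgam2. Only Ryr1, Myl3, Myoz2 and Tnnt1 passed under the limma fit with robust variance moderation, and Myl3 is one that entered only through the NC PNAs.

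That count turned on single libraries. It was 41 without NC 2 (7.57% of tested genes fell), 4 without NC 1, 4 without NC 3, 8 without PEG 1, 0 without PEG 2 and 2 without PEG 3. Each call given above for PEG-fused relative to NC PNAs was therefore lost without PEG 2, where 21 members still had an unadjusted limma p under 0.05. Leaving out Unop 1 or Unop 2 gave 10 and 9. The count tests called 41 (edgeR, 8.10% of tested genes) and 42 (DESeq2, 8.51%), and no setting turned the direction of any member. Myl1, Myh2, Ckm and Acta1 had larger standard errors (1.41 to 1.56) than Tnnt1 (0.25), and had the gap between NC 2 and the other NC PNAs that Tnnt1 lacked.

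In NC PNAs relative to Unop nerves, 11 members rose by limma (19.6% of tested genes) and 0 fell (19.0%, with 0 at an unadjusted p under 0.05 and 0 by edgeR or DESeq2). Without Myl2, Myl3, Myf5 and Pax7, which entered the test only through the NC PNAs, 9 of 39 rose. Both are only slightly larger shares than the 19.6% of all tested genes. Those that rose among the 43 were Myh3, Myh8, Chrnd, Myog, Myf5, Myod1, Myl3, Neb, Tnni1, Myoz2 and Tnnt1. Of these, 6 are developmental, myogenic or receptor genes, including Myf5, which entered the test only through the NC PNAs. By limma 0 of the 11 fast members passed, at log2 fold changes of 2.16 to 3.20 (0 at an unadjusted p under 0.05), and 4 of 8 slow members did, Myl3 among them. edgeR called 1 fast member (5 at an unadjusted p under 0.05) and 6 slow members, and DESeq2 called 9 fast and 7 slow members, and the difference between fast and slow members was not tested. The median over the 43, with genes at 0 in Unop nerves set at their bound, was 2.96, against 0.02 over all tested genes. The count was 41 without NC 2 (20.0% of tested genes rose), 7 without NC 1 and 7 without NC 3, and 6 without Unop 2. The calls of Chrnd, Myod1, Myog, Myoz2 and Neb were lost without Unop 2, and those of Myf5, Myod1, Neb and Tnni1 without NC 1 or without NC 3, while Myh3, Myh8, Myl3 and Tnnt1 passed whichever library was left out. Every NC PNA exceeded both Unop nerves in 10 of 43 members (23.3%), a smaller share than the 37.2% of all tested genes. edgeR called 22 (19.7% of tested genes) and DESeq2 39 (19.8%).

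In PEG-fused PNAs relative to Unop nerves, 2 members rose (Myh8 and Tnnt1, 16.7% of tested genes) and 1 fell (Myh7, 15.6%). Out of 43, both are smaller shares than those of all tested genes. The 11 fast members all had negative fold changes, from -2.47 to -1.02, but none passed (0 at an unadjusted p under 0.05), and Unop 1 and Unop 2 differed 5.63-fold in their sum. Every PEG-fused PNA exceeded both Unop nerves in 5 members (Myh3, Myh8, Tnnt1, Myog and Myf5), against 37.3% of tested genes, and lay below both in 8 (37.2%). The 2 comparisons with Unop nerves share those nerves, so their values are not independent.

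**Figure D5:**
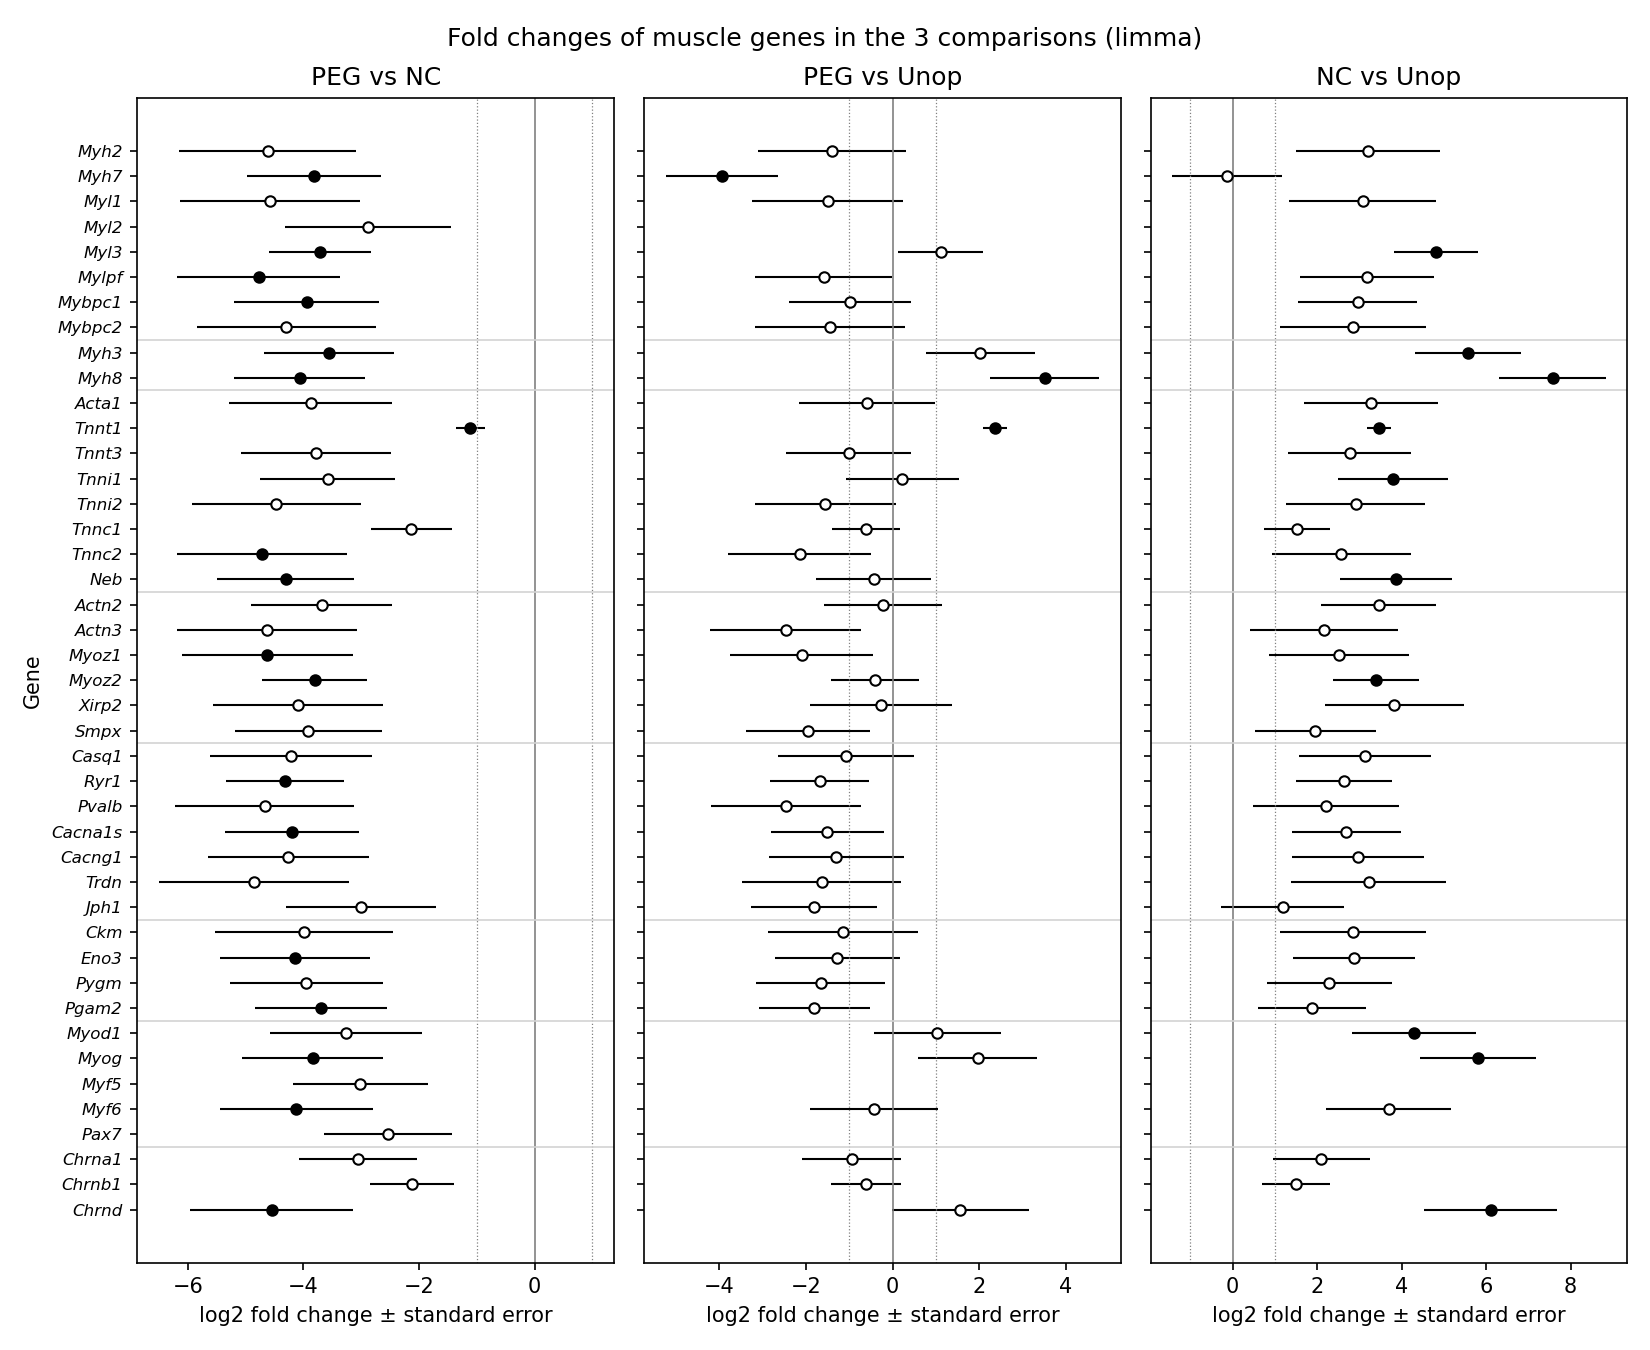
Each point is the limma log2 fold change of a member with its standard error, in 3 panels with the comparison above each (first group minus second), and filled points passed the thresholds (dotted lines at -1 and 1). All 43 points are negative in PEG vs NC, 18 of them filled, and Tnnt1 has the shortest bars. Myl2, Myf5 and Pax7 are left out against Unop, where both nerves had 0 reads.

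Other genes of the muscle programme that are no members gave a mixed picture. Of 27 tested fibre genes, 11 fell in PEG-fused relative to NC PNAs by limma, against 7.14% of all tested genes. In NC PNAs relative to Unop nerves 11 rose, against 19.6% of all tested genes. Sln, a regulator of the calcium pump, had 82.5, 11.2 and 13.1 normalized reads in PEG-fused PNAs, 2034, 92.5 and 1480 in NC PNAs, and 1.07 and 3.75 in Unop nerves, and was among both. Mymk, the myoblast fusion protein, had 265, 3.23 and 258 in NC PNAs, 14.8, 1.87 and 6.57 in PEG-fused PNAs and 0 in Unop nerves, and was again highest in NC 1 and NC 3. Myom2, an M-band protein, was high in Unop nerves (7676 and 8871) and in NC 1 (14043) and fell in PEG-fused PNAs relative to Unop nerves. Of 8 neuromuscular junction genes, Ache and Chrne fell and Lrp4 rose in PEG-fused relative to NC PNAs, while Rapsn fell in both kinds of graft relative to Unop nerves (803 and 1223 reads in Unop, 45.2 to 236 in grafts).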

How the data were processed

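RNA of 8 rat nerve samples was sequenced from stranded mRNA libraries. The authors deposited normalized signal values per Ensembl gene (build Rnor_6.0), made per the labels with FastQC, TopHat2, HTSeq and DESeq2, whose versions, and the strand setting of the counting, are not given in the sources used here. The deposited values are counts divided by a size factor for each library. Whole reads were recovered from 100% of values (tolerance 0.001). The fold changes and p-values of the authors' own comparisons were not used.

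Genes with at least 10 normalized reads in at least 2 libraries were kept (16478 of 22798). All 43 members passed, but Myl2, Myl3, Myf5 and Pax7 passed only through NC PNAs. log2(value + 1) was fitted with limma 3.58.1 in R 4.3.3 over the 3 groups together, with Benjamini-Hochberg adjustment over all tested genes, and a DEG had an adjusted p under 0.05 with a log2 fold change past 1 in size. Fold changes are on that scale and understate changes of low genes. Replicates are separate animals. edgeR 4.0.16 on the recovered reads called 756 genes higher and 1334 lower in PEG-fused relative to NC PNAs. DESeq2 1.42.0, other filters, pseudocounts, scalings and left-out libraries were alternatives. The scripts were tested on simulated counts with the same fixed spread for all genes, so that test does not bear on members that vary more between replicates. Members were named in full by role, with values for every library for those described, and genes of fixed lists by their calls. Members and lists were chosen with earlier results of these data known.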

Additional observations from a re-analysis of the deposited data

How the results depend on the processing

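Members that fell in PEG-fused relative to NC PNAs numbered 18, and 9 with no filter, 7 with the compared groups alone, 4 with the robust fit, 41 with edgeR under either scaling, 42 with DESeq2 and 0 to 41 with a library left out. Members that rose in NC PNAs relative to Unop nerves numbered 11, and 22 with edgeR and TMM factors, 23 with edgeR and median-of-ratios factors, 39 with DESeq2 and 6 to 41 with a library left out. In PEG-fused PNAs relative to Unop nerves, 2 rose, and 1 with pseudocount 8, either edgeR fit or the robust fit, 4 with the compared groups alone and 1 to 5 with a library left out, while 1 fell, and 0 with pseudocount 8, 4 with the compared groups alone and 0 to 4 with a library left out. The cause was not tested. The number of members that rose in PEG-fused relative to NC PNAs, or fell in NC PNAs relative to Unop nerves, was 0 throughout.

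Same-numbered PEG-fused and NC PNAs correlated in their deviations from the group means at 0.108, 0.109 and -0.0502 over tested genes (0.218, 0.589 and -0.324 over members), and the 4 same-numbered pairs with Unop nerves at 0.136 to 0.157 (0.330 to 0.535 over members). As not every pair exceeded 0.1, and the labels tie no numbers together, the numbers were not taken to pair the samples. With the number as a block, 35 members fell in PEG-fused relative to NC PNAs, 26 rose in NC PNAs and 1 in PEG-fused PNAs relative to Unop nerves. Under the block the log2 fold change of Tnni1 in PEG-fused PNAs against Unop nerves was -0.11 and that of Myh7 in NC PNAs against Unop nerves was 0.41.

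No fold change between the grafts turned sign. Against Unop nerves, Tnni1 in PEG-fused PNAs (0.22) was -0.13, -0.15 and -0.17, and Actn2 (-0.23) was 0.16, 0.14 and 0.14, with edgeR and TMM factors, edgeR and median-of-ratios factors, and DESeq2. Myh7 in NC PNAs (-0.13) was 1.36, 1.35 and 1.34 with the same tools and 0.012 with pseudocount 8. With a library left out, log2 fold changes in PEG-fused PNAs that turned sign ranged as follows: Myl3 -0.34 to 2.55, Acta1 -1.77 to 0.57, Tnnt3 -2.16 to 0.13, Tnni1 -1.21 to 1.66, Neb -0.97 to 0.090, Actn2 -0.82 to 0.61, Xirp2 -1.23 to 0.68, Ckm -2.78 to 0.47, Myod1 -0.51 to 2.58, Myf6 -1.65 to 0.78, and Myh7 in NC PNAs ranged from -1.58 to 1.20. None of these passed in the fit reported.

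With pseudocount 8, log2 Mylpf over Myl2 became 7.87, 5.21 and 6.40 in PEG-fused PNAs and 9.44 and 6.93 in Unop nerves, and Myoz1 over Myoz2 became 1.87 in PEG 2 and 2.55 in PEG 3. Fibre shares were also taken without the top member, without the myosin heavy chains, and without mitochondrial genes in the total. The share of NC 1 was then 56.5, 55.0 and 57.6 times that of NC 2. That of PEG 1 was 5.39, 5.38 and 5.66 times that of PEG 2, and that of Unop 1 was 4.67, 4.64 and 4.99 times that of Unop 2. The ratio of Myh4 to Myh7 was not run, as Myh4 was not analysed here. With 2 Unop nerves that differ 4.84-fold in fibre share, and members at under 10 reads in several libraries, small differences were not detectable.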
